A study of Mus musculus with 4 samples.

Results

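Myeloid C-type lectins of the Dectin and DCIR groups are surface receptors, and transcripts of 8 of them are described here in plasmacytoid dendritic cells (pDCs) divided by a reporter of Cxcl10. The genes are Clec4a1, Clec4a2, Clec4a3, Clec4a4, Clec4b1, Clec4n, Clec7a and Clec12a. They were picked by symbol from a table of 27179 genes, and all 8 were found there and had enough counts to enter the test. They were chosen with their difference between reporter-positive and reporter-negative cells already known, so that difference is given as a description and no p-value is given for it. Whether a gene passed the threshold is told only to show how far its value depends on single libraries and on the processing, and supports nothing.

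C-type lectin receptors bind sugars, lipids or cell debris on the outside of myeloid cells and pass the signal on in opposing ways. The activating kind, such as Dectin-1 with its own tyrosine motif or Dectin-2 through the Fc receptor gamma chain, recruits the kinase Syk, which works through the adaptor Card9 to switch on NF-κB. The inhibitory kind carries an immunoreceptor tyrosine-based inhibitory motif (ITIM) in its tail, which recruits phosphatases such as SHP-1. In human pDCs the related lectins BDCA-2 and DCIR are known to dampen interferon production after Toll-like receptor stimulation. Mice have several DCIR genes in place of the single human one, and they lie beside Dectin-2.

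The cells were C57BL/6 mouse dendritic cells raised in culture from bone marrow over 8 days with Flt3 ligand, the growth factor of dendritic cell development. All were stimulated for 24 h with imiquimod, a TLR7 ligand, at 1 µg/ml. The pDCs were sorted by SiglecH and CD11b and divided by blue fluorescent protein (BFP), giving 2 BFP-positive and 2 BFP-negative libraries by RNA-seq. The sources used here give neither the construct of the reporter nor the position of the BFP and CD11b gates, and no unstimulated library was analysed here. A population label calls the BFP-negative samples CXCL10-positive while the design text calls them CXCL10-negative, so only the BFP part was used. Nothing in the labels says that replicates came from separate animals, so p-values measure only the spread between these libraries, which may be technical. Library totals ran from 11868254 to 12570117 counts, and 1 count was worth 0.0788 to 0.0858 CPM, the usual unit of counts scaled to library size.

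All 13 pDC markers were detected in the sorted cells. The same held for both conventional dendritic cell lists and the B cell list below, so detection alone does not identify the cells. The summed level of the 13 pDC markers was 24281 and 28844 CPM in BFP-negative and 20212 and 19304 CPM in BFP-positive libraries. Most of that sum was Ly6d, at 17276 and 20930 against 13601 and 12561 CPM. The markers moved in both directions, with 2 of 13 higher and 4 lower at an adjusted p of 0.05 in edgeR. Siglech and Runx2 were higher, and Ccr9, Ly6d, Cox6a2 and Klk1 were lower. Markers of conventional dendritic cells and of monocytes and macrophages had higher sums on the BFP-positive side. The 15 monocyte and macrophage markers, of which 12 had a count, summed to 743 and 882 CPM in BFP-negative and 1466 and 1653 CPM in BFP-positive libraries. The largest part of that sum in each library was Ly6c2, at 299 and 378 against 776 and 896 CPM. Of the 12 markers of this list that were tested, 6 were higher and 2 lower at an adjusted p of 0.05 in edgeR. Over all 11706 genes tested these shares were 7.60% and 3.51%. Csf1r, the receptor for the growth factor of monocytes and macrophages, had 3 and 0 counts in BFP-negative and 265 and 398 in BFP-positive libraries. Fcgr1, an Fc receptor, was at 0.241 and 1.10 against 16.98 and 30.43 CPM, Lyz2, a lysozyme, at 1.61 and 1.81 against 17.3 and 38.2 CPM, and Cd14, a co-receptor for lipopolysaccharide, at 9.80 and 10.3 against 99.3 and 95.8 CPM. These 4, named after their values were seen, rose, as did Ly6c2 and Ccr2, whereas Adgre1 and Apoe fell. C1qb, C1qc, Cd68 and Cx3cr1 did not pass, and the other 3 genes of the list, among them Mertk and C1qa, had no count in any library. The 8 markers of type 2 conventional dendritic cells, all with a count, summed to 127 and 177 against 246 and 311 CPM. Of 6 tested, 2 were higher and 0 lower by the same edgeR threshold. The 8 of type 1 cells, again all with a count, summed to 264 and 306 against 367 and 439 CPM. Of 7 tested, 1 was higher and 1 lower. Naaa rose from 94.4 and 104 to 173 and 227 CPM, and Cadm1 fell from 27.1 and 30.7 to 14.6 and 13.1 CPM. Neutrophil markers stayed between 10.4 and 29.8 CPM in sum, with 7 of 8 detected and Elane at 0, and the 5 B cell markers, all detected, between 94.7 and 123 CPM. Clec9a belongs to the type 1 list, and Itgam is also a membrane partner below. In bulk samples fewer cells of a type and less RNA per cell cannot be told apart, and the part of other cells in the differences described next was not tested.

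All 8 lectin transcripts were higher in BFP-positive cells, and in each of them both BFP-positive libraries lay above both BFP-negative ones. Such a separation in this direction was seen in 27.1% of the 11706 genes tested. In the fit over all genes, 8 of the 8 were higher past an adjusted p of 0.05, against 7.60% of all genes tested, a contrast that the choice of the genes had already used. None was lower, by edgeR at an adjusted p of 0.05, at an unadjusted p under 0.05, or by DESeq2 or limma-voom. The median log2 fold change over the 8 was 4.37, and over all genes tested it was -0.02. For 7 of the 8 the fitted difference was over 10-fold, and 2.56% of all genes tested were at least 4-fold higher and past the threshold. Clec12a differed 1.54-fold. Levels below are CPM scaled by the trimmed mean of M values (TMM), as mean ± SD of 2 libraries, and folds are BFP-positive over BFP-negative.

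**Figure D1:**
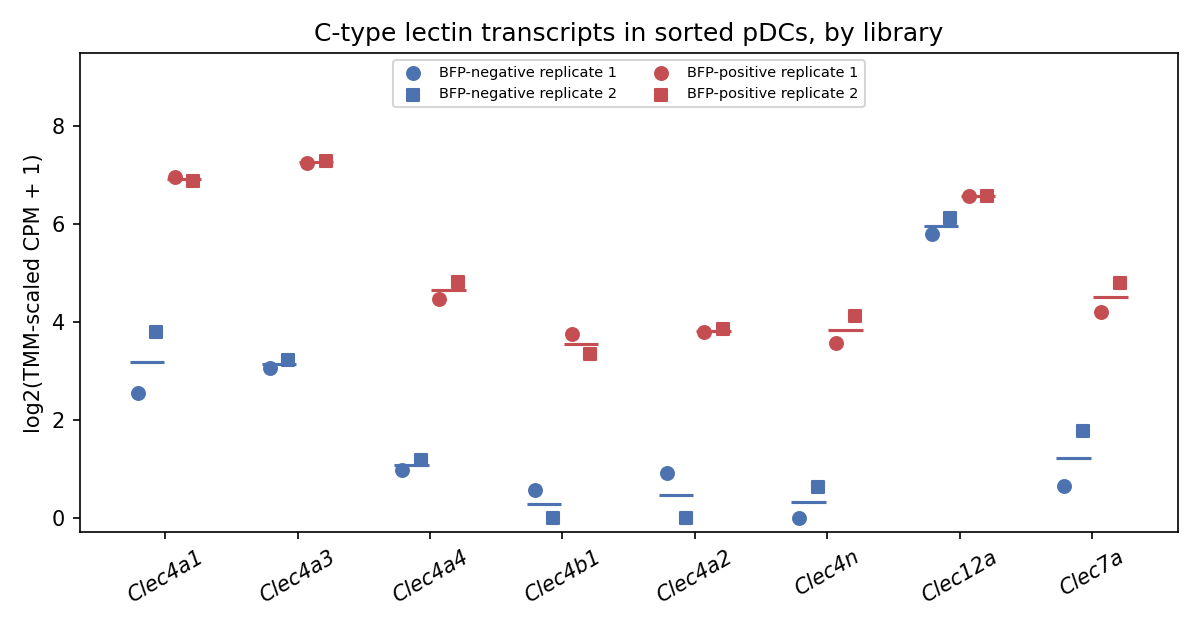
Levels of the 8 lectin transcripts in each library, as log2 of TMM-scaled CPM plus 1 on the vertical axis, with genes in chromosomal order. Points are libraries and short lines are the mean of each group. Red BFP-positive points lie above blue BFP-negative points for every gene, with the smallest gap for Clec12a.

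Clec4a2 and Clec4a4 encode DCIR1 and DCIR2, the mouse DCIR proteins with an ITIM, and DCIR2 is known as a marker of type 2 conventional dendritic cells in spleen. Clec4a4 was at 0.964 and 1.26 CPM in the BFP-negative libraries and at 21.3 and 27.4 CPM in the BFP-positive ones. Both groups were tight and far apart, with 1.11 ± 0.210 against 24.3 ± 4.33 CPM, a log2 fold change of 4.44 with a standard error (SE) of 0.41. Clec4a2 was at 0.883 CPM in BFP-negative replicate 1 and had no count in replicate 2, against 12.9 and 13.5 CPM in the BFP-positive libraries. Its BFP-positive level was even between replicates, whereas the BFP-negative level rested on 11 counts in 1 library. The summed counts, 314 against 11, stood at 30.1 to 1, and the exact 95% interval of 16.6 to 61.0 covers counting error only. The fitted log2 fold change of Clec4a2 was 4.88, SE 0.87. It was 3.90 without BFP-negative replicate 2, while without replicate 1 the fit was to 0 counts and gave no measured size. Clec4a2 did not pass by DESeq2.

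Clec4a3 and Clec4a1 encode DCIR3 and DCIR4, the mouse DCIR proteins that lack the ITIM and whose signalling is less well known. Clec4a3 was at 7.31 and 8.35 CPM in BFP-negative and 151 and 157 CPM in BFP-positive libraries. Its replicates were close in both groups, and its log2 fold change of 4.29, equal to 19.6-fold, had an SE of 0.19. Clec4a1 was at 4.90 and 12.9 CPM in BFP-negative and 124 and 117 CPM in BFP-positive libraries. The BFP-positive replicates were close, and of the BFP-negative ones the second was clearly the higher. The log2 fold change of Clec4a1 was 3.75, SE 0.35, with 3.22 on leaving out the first BFP-negative library and 4.64 on leaving out the other.

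Clec4b1 and Clec4n encode DCAR, a receptor for mycobacterial glycolipids, and Dectin-2, which binds fungal mannans. Both proteins have a short tail and signal through the Fc receptor gamma chain. Clec4n had no count in BFP-negative replicate 1 and was at 0.552 CPM in replicate 2, from 7 counts, against 10.9 and 16.4 CPM in the BFP-positive libraries. Clec4b1 was at 0.482 CPM in BFP-negative replicate 1, from 6 counts, with no count in replicate 2, against 12.4 and 9.13 CPM in BFP-positive libraries. Both transcripts were thus near the limit of detection in BFP-negative cells, where a library without a count still allows 3 counts, equal to 0.236 or 0.241 CPM. Summed counts were 49.2 times higher for Clec4n (exact 95% interval 23.6 to 123) and 45.0 times higher for Clec4b1 (20.4 to 124), again for counting error only. Fitted log2 fold changes were 5.57, SE 0.84 for Clec4n and 5.43, SE 0.89 for Clec4b1. Leaving out the BFP-negative library at 0 lowered them to 4.61 without replicate 1 for Clec4n and 4.48 without replicate 2 for Clec4b1. Leaving out the other BFP-negative library left only a 0 to fit and gave no measured size.

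Clec7a encodes Dectin-1, the receptor for fungal beta-glucans that carries its own activating motif. It was at 0.562 and 2.44 CPM in BFP-negative and 17.6 and 26.9 CPM in BFP-positive libraries. Replicates of Clec7a differed within both groups, yet the groups stayed far apart, with a fitted difference of 14.7-fold. The log2 fold change was 3.88, SE 0.58, and moved to 3.19 when the first BFP-negative library was dropped and to 5.30 when the other was. Clec12a encodes MICL, an ITIM receptor for uric acid crystals and dead cells that is known on mouse pDCs as well as on conventional dendritic cells. It was at 54.6 and 69.0 CPM in BFP-negative and 95.1 and 94.6 CPM in BFP-positive libraries. Clec12a was the only one of the 8 with over 20 CPM in BFP-negative cells, and its log2 fold change of 0.62, SE 0.18 was the smallest. It no longer passed the threshold with library totals alone in place of TMM, or when the first BFP-negative library or either BFP-positive library was left out.

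BFP-negative replicate 2 was not uniformly the higher of its group. Clec4a1, Clec4a3, Clec4a4, Clec7a, Clec4n and Clec12a were higher there than in replicate 1. Clec4b1 and Clec4a2 were detected in replicate 1 alone, from 6 and 11 counts. Across every scaling, filter, test and left-out library tried, and in the deposited log2 RPKM, each of the 8 kept its direction. The plot of fold changes under each alternative shows a range under 0.5 for Clec4a3, Clec4a4 and Clec12a. It shows ranges of over 5 for the 3 genes with a BFP-negative library at 0.

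**Figure D2:**
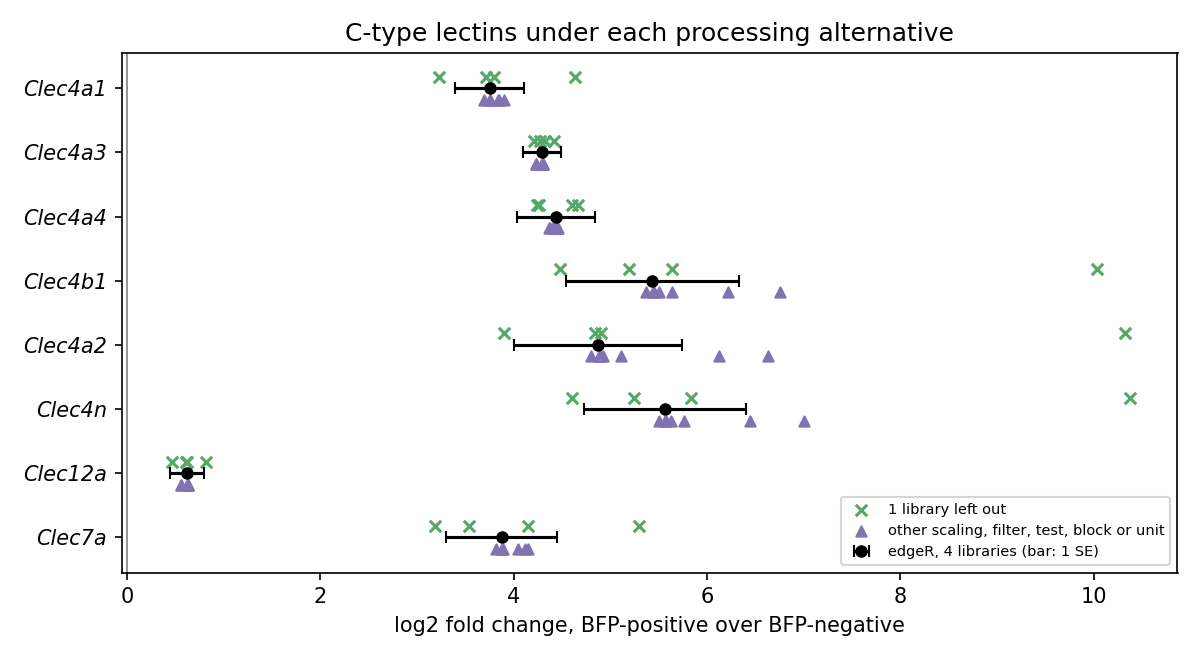
Log2 fold change of each lectin on the horizontal axis under each processing alternative. Black points with bars are the edgeR fit with 4 libraries and 1 SE, green crosses leave out 1 library, and purple triangles change the scaling, filter, test, block or unit. The far-right crosses of Clec4b1, Clec4a2 and Clec4n, at about 10, are fits to a single BFP-negative library with 0 counts. No point lies below 0.

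Levels can be compared between genes only per gene length, for which the deposited log2 RPKM (reads per gene length and depth, as mean ± SD of 2 libraries) served. In BFP-negative cells Clec12a stood first at 4.82 ± 0.21, above Clec4a3 at 2.59 ± 0.11 and Clec4a1 at 2.39 ± 0.96, and these last 2 did not differ beyond their spread. Clec4a4 followed at 0.07 ± 0.24. Clec7a was at -1.92 and 0.13, a range that reaches Clec4a4. Clec4b1, Clec4a2 and Clec4n were at -0.60, -1.49 and -1.11 in the 1 library where each had counts, and with the other library at 0 their order among themselves and against Clec7a was not measured. In BFP-positive cells the order was Clec4a3 at 6.82 ± 0.03, Clec4a1 at 6.24 ± 0.07, Clec12a at 5.38 ± 0.02 and Clec4a4 at 4.43 ± 0.25. Clec4b1 at 3.73 ± 0.32, Clec4n at 3.39 ± 0.40 and Clec7a at 3.22 ± 0.42 were within each other's spread, and Clec4a2 was lowest at 2.30 ± 0.04. Clec12a made up 69.5% and 64.2% of the summed RPKM of the 8 genes in BFP-negative libraries. Clec4a3 and Clec4a1 held 38.8% and 27.1% of it in BFP-positive replicate 1 and 39.0% and 24.8% in replicate 2, where Clec12a held 14.6% and 14.1%. Per length, Clec4a3 exceeded 90.5% and 90.8% of the tested genes in the BFP-positive libraries, against 44.1% and 46.9% in the BFP-negative ones.

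**Figure D3:**
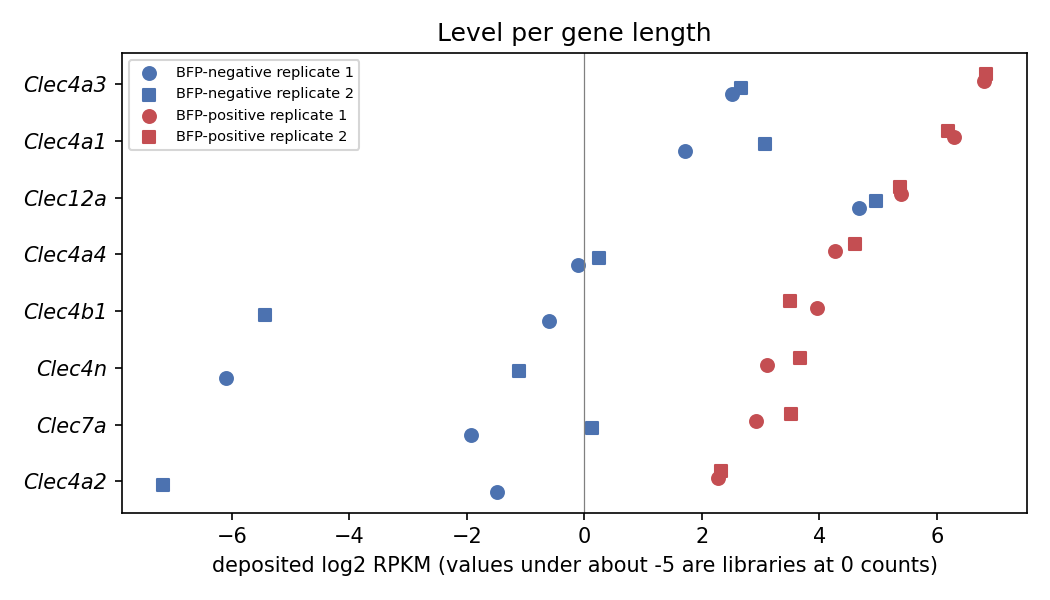
Deposited log2 RPKM of the 8 lectins in each library, ordered by their BFP-positive level. Blue points are BFP-negative and red points BFP-positive libraries, and points at the far left, under about -5, are libraries with 0 counts. Clec12a is highest in both BFP-negative libraries, and Clec4a3 and Clec4a1 lie above it in BFP-positive cells.

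The DCIR genes and Clec4b1 are close copies of each other, which limits how surely a read can be given to 1 of them. Over aligned bases of the coding sequences of GENCODE M21 (GRCm38), Clec4b1 and Clec4a2 were 87.1% identical and Clec4a2 and Clec4a4 85.8%. Clec4a1 and Clec4a3, the most abundant pair, were 73.5% identical, and Clec7a and Clec12a 63.0%. The longest identical stretches are shown because a read that lies within one fits both genes. Clec4a2 and Clec4a4 share 163 bases from coding base 75 of either gene, and Clec4b1 and Clec4a2 share 82 bases from coding bases 399 and 558.
Clec4a2 and Clec4a4: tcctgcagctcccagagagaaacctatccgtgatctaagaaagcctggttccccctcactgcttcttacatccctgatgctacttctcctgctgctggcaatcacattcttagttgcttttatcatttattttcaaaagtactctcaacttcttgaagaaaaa
Clec4b1 and Clec4a2: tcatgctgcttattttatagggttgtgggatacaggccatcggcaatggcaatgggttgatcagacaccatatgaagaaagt
The read length and the treatment of reads with several matches are not given in the sources used here, so the counts of Clec4a2, Clec4a4 and Clec4b1 are uncertain. The longest stretch that Clec4a3 shared with another of the 8 genes was 40 bases, with Clec4a4. For Clec4n it was 31 bases, with Clec4b1, and reads shorter than these stretches could fit both genes. No stretch shared by Clec4a1 with another of the 8 genes was longer than 26 bases, and for Clec12a and Clec7a the longest were 10 and 12 bases.

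All 8 genes lie on mouse chromosome 6 in 2 clusters, given here as whole genes with introns on GRCm38. The Dectin-2 cluster spans 325 kb and runs from Clec4a1 (122921848 to 122934619) over Clec4a3 (122952515 to 122969878), Clec4a4 (122990367 to 123024421), Clec4b1 (123049962 to 123071555) and Clec4a2 (123122690 to 123143999) to Clec4n (123229843 to 123247024), all on the plus strand. The Dectin-1 cluster holds Clec12a (129349783 to 129365303, plus strand) and Clec7a (129461591 to 129472785, minus strand). The genes in between and the 6 genes of the count table on either side of each cluster were examined as neighbours, 29 in all, of which 12 were tested. Of those 12, 5 were higher and 0 lower at an adjusted p of 0.05 in edgeR, with 5 and 2 at an unadjusted p under 0.05 and with 5 higher and 1 lower by DESeq2 and by limma-voom. Over all genes tested, 7.60% were higher and 3.51% lower. The neighbours named next were chosen after their values were seen.

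Beside the Dectin-2 cluster, 3 tested genes upstream of Clec4a1 rose by the edgeR test, all in each of the 10 alternatives with a test. C3ar1, the receptor of the complement fragment C3a, was at 2.33 and 3.63 CPM in BFP-negative and 28.81 and 30.02 CPM in BFP-positive libraries, a log2 ratio of 3.30 (SE 0.35) at an adjusted p of 0.000291. Necap1, a protein of clathrin-coated vesicles, rose by 1.09, SE 0.20 (adjusted p = 0.00729). Slc2a3, a glucose transporter, rose by 1.39, SE 0.28 (adjusted p = 0.00975), and by 0.99 or 1.96 when the first or the second BFP-negative library was dropped. Other lectins of the cluster were barely detected. Clec4b2, between Clec4a2 and Clec4n, had no count in any library. Clec4e, which encodes Mincle, had 2 counts in 1 library, and Clec4d, which encodes its partner MCL, had 7 and 0 counts in BFP-negative and 26 and 9 in BFP-positive libraries, too few to be tested. In the Dectin-1 cluster, Clec9a lies between Clec12a and Clec7a and encodes a receptor for dead cells on type 1 conventional dendritic cells and pDCs. Its annotated span overlaps that of Clec12b, whose reads an unstranded kit cannot tell apart. Clec9a was at 18.0 and 26.4 CPM in BFP-negative and 40.0 and 26.6 CPM in BFP-positive libraries, and its log2 ratio of 0.58 (SE 0.29) did not pass (adjusted p = 0.249). Cd69 was lower in BFP-positive libraries, at 284 and 231 against 200 and 149 CPM. Gabarapl1 was lower as well, at 31.8 and 31.8 against 22.3 and 15.2 CPM. Neither passed by edgeR (adjusted p = 0.0645 and 0.0994). Farther out, the natural killer receptor genes Klrd1 and Klrb1f rose by log2 2.46, SE 0.19 and 2.09, SE 0.44 (adjusted p = 3.81e-05 and 0.0137). The Klrb1f call did not survive leaving out BFP-positive replicate 1 (adjusted p = 0.134).

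**Figure D4:**
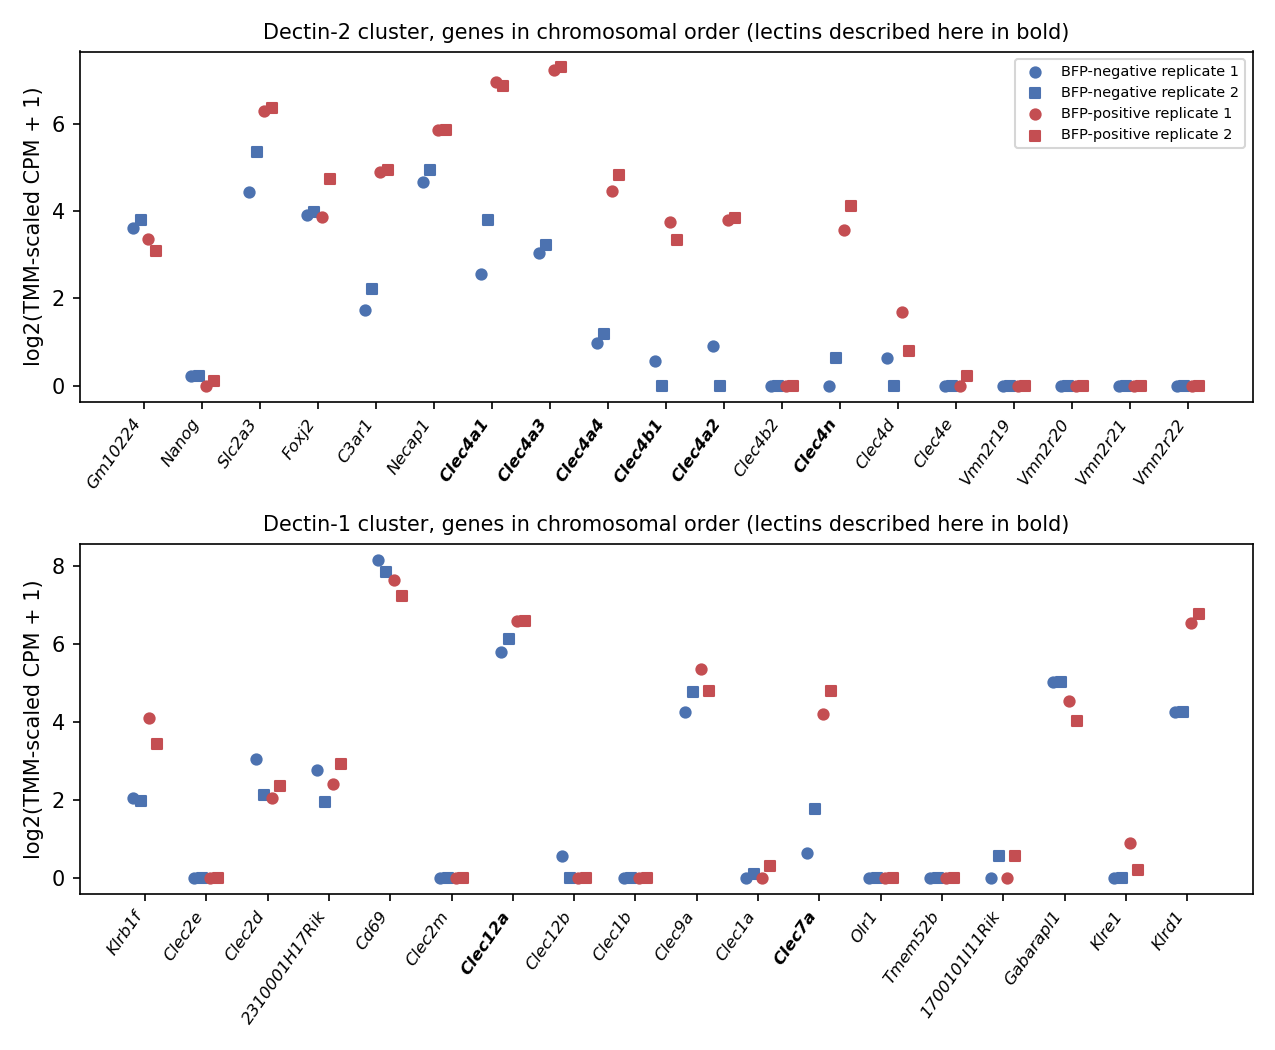
Levels in each library, as log2 of TMM-scaled CPM plus 1, of the genes in and around the Dectin-2 cluster (top) and the Dectin-1 cluster (bottom), in chromosomal order with the 8 lectins in bold. Red BFP-positive points stand clear of blue BFP-negative points from C3ar1 to Clec4n in the top panel, except for Clec4b2, which is at 0. In the bottom panel they do so for Klrb1f, Clec7a and Klrd1. There Clec12a shows a narrow gap and the nearest points of Clec9a all but touch. Cd69 and Gabarapl1 go the other way, with both blue points above both red ones, as does Gm10224 in the top panel.

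Promoters of the lectins are shown because the 8 transcripts were higher together. The RefSeq table of GRCm38.p6 held windows of 250 bases before to 50 after the start for 6 of the 8 genes, with none for Clec4a4 and Clec4n. The motif searched in capitals below is GAGGAA on either strand (TTCCTC on the printed one), the core bound by PU.1, a transcription factor of myeloid cells. It was present for 5 of the 6 genes, Clec4a2 being the exception, and for 31.3% of all genes of that table. The composite motif, made of GGAA and GAAA with any 2 bases between, bound by PU.1 with an interferon regulatory factor, was present for Clec4a1 and Clec7a and for 3.16% of all genes. The interferon-stimulated response motif, GAAA repeated after any 2 bases, was present for Clec4b1 and 3.99% of all genes, and both motifs end in GAAA. The NF-κB motif, GGGA and TTCC with any 2 bases between, was in none of the 6 and in 1.63% of all genes. All were searched on both strands. A match is a description of letters and no evidence of binding. The windows of the 2 most abundant DCIR genes and of both Dectin-1 cluster genes follow, 5′ to 3′ on the strand of the gene.
Clec4a1, chr6:122921598-122921897, plus strand: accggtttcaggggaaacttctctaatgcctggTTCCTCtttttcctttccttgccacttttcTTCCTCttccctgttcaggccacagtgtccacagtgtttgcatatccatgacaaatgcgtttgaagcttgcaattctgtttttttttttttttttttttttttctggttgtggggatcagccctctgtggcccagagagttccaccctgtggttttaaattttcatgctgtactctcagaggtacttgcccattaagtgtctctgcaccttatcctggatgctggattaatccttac
Clec4a3, chr6:122952394-122952693, plus strand: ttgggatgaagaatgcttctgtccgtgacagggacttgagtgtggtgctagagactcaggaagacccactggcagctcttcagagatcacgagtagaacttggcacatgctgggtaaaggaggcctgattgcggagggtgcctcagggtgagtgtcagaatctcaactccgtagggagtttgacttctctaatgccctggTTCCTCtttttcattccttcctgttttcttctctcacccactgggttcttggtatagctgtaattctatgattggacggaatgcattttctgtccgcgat
Clec12a, chr6:129349994-129350293, plus strand: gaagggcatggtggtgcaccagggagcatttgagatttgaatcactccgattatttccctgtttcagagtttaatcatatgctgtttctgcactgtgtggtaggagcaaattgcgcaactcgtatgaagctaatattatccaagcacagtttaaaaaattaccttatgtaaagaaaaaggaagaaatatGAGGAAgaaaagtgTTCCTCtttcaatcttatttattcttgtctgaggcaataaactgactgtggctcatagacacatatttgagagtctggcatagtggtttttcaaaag
Clec7a, chr6:129472730-129473029, minus strand: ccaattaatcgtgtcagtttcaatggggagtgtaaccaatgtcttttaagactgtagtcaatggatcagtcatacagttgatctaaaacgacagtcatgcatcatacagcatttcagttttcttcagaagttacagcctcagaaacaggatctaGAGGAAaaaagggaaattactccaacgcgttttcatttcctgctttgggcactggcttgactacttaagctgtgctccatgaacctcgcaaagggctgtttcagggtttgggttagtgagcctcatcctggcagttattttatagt
The Clec4a1 and Clec4a3 windows share a run of 17 bases, CCTGGTTCCTCTTTTTC, which holds the PU.1 core and starts at -222 and -55 from the annotated starts. Only these 2 promoters of the RefSeq set held that run. Clec7a has another annotated start close by, and its window there (129472736 to 129473035) overlaps the printed one and holds the same PU.1 core. The other window of Clec4a3 (122952265 to 122952564), which spans the gene start at 122952515, did not hold the core. For Clec12a the printed window lies downstream of the gene start at 129349783, and no window at that start was searched.

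Other myeloid C-type lectins were mostly too low to be tested. Of 17 such genes in a list and 8 further ones of the 2 clusters, 6 were tested, and by edgeR at an adjusted p of 0.05 0 rose and 1 fell, against 7.60% and 3.51% of all genes tested. At an unadjusted p under 0.05 there were 1 higher and 1 lower, and DESeq2 and limma-voom each gave 0 and 1. The lectin that fell was Clec2i, a ligand of an inhibitory natural killer cell receptor, from 59.5 and 64.3 to 28.5 and 29.4 CPM, a log2 ratio of -1.10 (SE 0.19) at an adjusted p of 0.00515. Clec10a, a galactose-binding lectin of type 2 conventional dendritic cells, was at 0.0803 and 1.58 CPM in BFP-negative and 1.89 and 7.81 CPM in BFP-positive libraries, a log2 ratio of 2.53 (SE 1.11) at an adjusted p of 0.191. It passed only when BFP-negative replicate 2 was left out (5.76, adjusted p = 0.0119). Clec2d, a ligand of the receptor NKR-P1B, had a log2 ratio of -0.55 (SE 0.59) that did not pass (adjusted p = 0.636). Cd207, which encodes Langerin, and Cd209b, Cd209e, Mrc2, Clec4f and Colec12 had no count in any library. Whether these lectins differ from the 8 in their response was not tested.

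The signalling partners of the lectins moved in both directions. Of 19 genes of Syk and Card9 signalling, all tested, 5 rose and 2 fell, where 7.60% of all genes tested rose and 3.51% fell, with a median log2 fold change of 0.17 beside -0.02 over all genes tested. Card9, the adaptor behind Syk, was nearly absent from BFP-negative cells, with 1 and 0 counts, and had 67 and 48 counts in BFP-positive cells. Its summed counts were 121 times higher (exact 95% interval 21.4 to 4836, for counting error only), at an adjusted p of 0.00525 in edgeR. The fitted log2 ratio of 6.60 became 5.76 once BFP-negative replicate 2 was dropped, and without replicate 1 the fit was to 0 counts and gave no measured size. Vav3, a guanine nucleotide exchange factor, was at 0.883 and 1.97 CPM against 10.5 and 9.29 CPM, a log2 ratio of 2.79 (SE 0.57) at an adjusted p of 0.0109. That ratio was 2.33 or 3.50 when the first or the second BFP-negative library was dropped. Fgr, a Src-family kinase of myeloid cells, rose 2.93-fold, from 154 ± 24.8 to 451 ± 79.5 CPM (adjusted p = 0.000295). Src itself was at 20.1 and 19.4 CPM against 5.49 and 8.39 CPM, a log2 ratio of -1.51 (SE 0.35) at an adjusted p of 0.0202, which became 0.0858 when BFP-positive replicate 1 was left out.

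The shared signalling chains took opposite directions. Fcer1g, the Fc receptor gamma chain used by Dectin-2 and DCAR, was abundant in all libraries and fell from 5926 and 5988 CPM to 4015 and 4022 CPM, a log2 ratio of -0.57 (SE 0.09) at an adjusted p of 0.00344. That fall passed in all 10 alternatives with a test. Tyrobp, which encodes the related adaptor DAP12, was at 1088 and 1300 CPM against 1666 and 1665 CPM, a log2 ratio of 0.48 (SE 0.12) at an adjusted p of 0.0260. It did not pass when the first BFP-negative, the first BFP-positive or the second BFP-positive library was dropped (adjusted p = 0.0808, 0.102 and 0.104). Syk stood at 73.6 ± 10.2 against 86.3 ± 1.60 CPM and did not pass (log2 ratio 0.23, SE 0.17, adjusted p = 0.467). Bcl10 and Malt1, which act with Card9, did not pass either. Per length, Fcer1g stood at 13.2 in each BFP-negative library and 12.5 in each BFP-positive one on the deposited log2 RPKM scale, and Card9 reached 1.81 and 1.26 in BFP-positive cells.

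Of the 3 genes for phosphatases that ITIMs recruit, 2 rose and 0 fell, beside 7.60% and 3.51% of all genes tested. Inpp5d, which encodes SHIP1, was at 33.8 and 40.7 CPM against 70.8 and 83.6 CPM, a log2 ratio of 1.05 (SE 0.19) at an adjusted p of 0.00689. Ptpn6, which encodes SHP-1, was at 1001 and 1123 CPM against 1393 and 1513 CPM, a log2 ratio of 0.45 (SE 0.11) at an adjusted p of 0.0285. The same 3 omissions as for Tyrobp ended the Ptpn6 call (adjusted p = 0.0789, 0.0724 and 0.208). Ptpn11, which encodes SHP-2, was at 28.5 and 31.4 CPM against 34.8 and 30.8 CPM, without passing (log2 ratio 0.13, SE 0.22, adjusted p = 0.781).

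Among 5 membrane partners of Dectin-1, only Lgals3 passed, as higher, beside 7.60% of all genes tested. Lgals3 encodes galectin-3, which binds Dectin-1, and went from 132 ± 30.8 to 519 ± 20.9 CPM, a log2 ratio of 1.97 (SE 0.16) at an adjusted p of 6.18e-05. Itgam, the gene of CD11b, stood at 1.77 and 4.10 CPM against 9.60 and 10.6 CPM, with a log2 ratio of 1.78 (SE 0.52) and an adjusted p of 0.0546. In 5 of the 10 alternatives with a test Itgam passed, namely with the replicate block (adjusted p = 0.0316), by DESeq2 and limma-voom, with no filter on low counts, and when BFP-negative replicate 2 was left out (2.53, adjusted p = 0.00924), and CD11b was used in the sort. Tlr2, a receptor that acts together with Dectin-1, had a log2 fold change of 0.70, SE 0.23 and an adjusted p of 0.0788, which became 0.0421 when BFP-positive replicate 1 was left out and 0.0491 with the replicate block. Cd37, a tetraspanin that holds Dectin-1 at the membrane, had -0.34, SE 0.12 and 0.110. Of 9 genes known to be induced through Dectin-1 in other myeloid cells, 5 were tested, of which Il1b rose and Il6 and Tnf fell, beside 7.60% and 3.51% of all genes tested. Il1b, the gene of interleukin-1 beta, went from 9.47 and 14.2 CPM to 265 and 287 CPM, and its log2 ratio of 4.54 (SE 0.21, adjusted p = 2.01e-06) passed in all 10 alternatives with a test. Tnf went from 159 and 120 CPM down to 59.5 and 72.7 CPM, and its log2 ratio of -1.07 (SE 0.19, adjusted p = 0.00506) passed in all 10 as well. Il6 was at 461 and 339 CPM against 259 and 190 CPM, a log2 ratio of -0.83 (SE 0.18) at an adjusted p of 0.0169, which became 0.0791 when BFP-positive replicate 2 was left out. Il23a, a cytokine gene induced through Dectin-1, had no count in any library. Over the 32 tested genes of these 4 lists, 9 rose and 4 fell, with 11 and 4 by DESeq2. Over all genes, 890 rose and 411 fell by edgeR (7.60% and 3.51%), and 1036 and 561 by DESeq2.

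**Figure D5:**
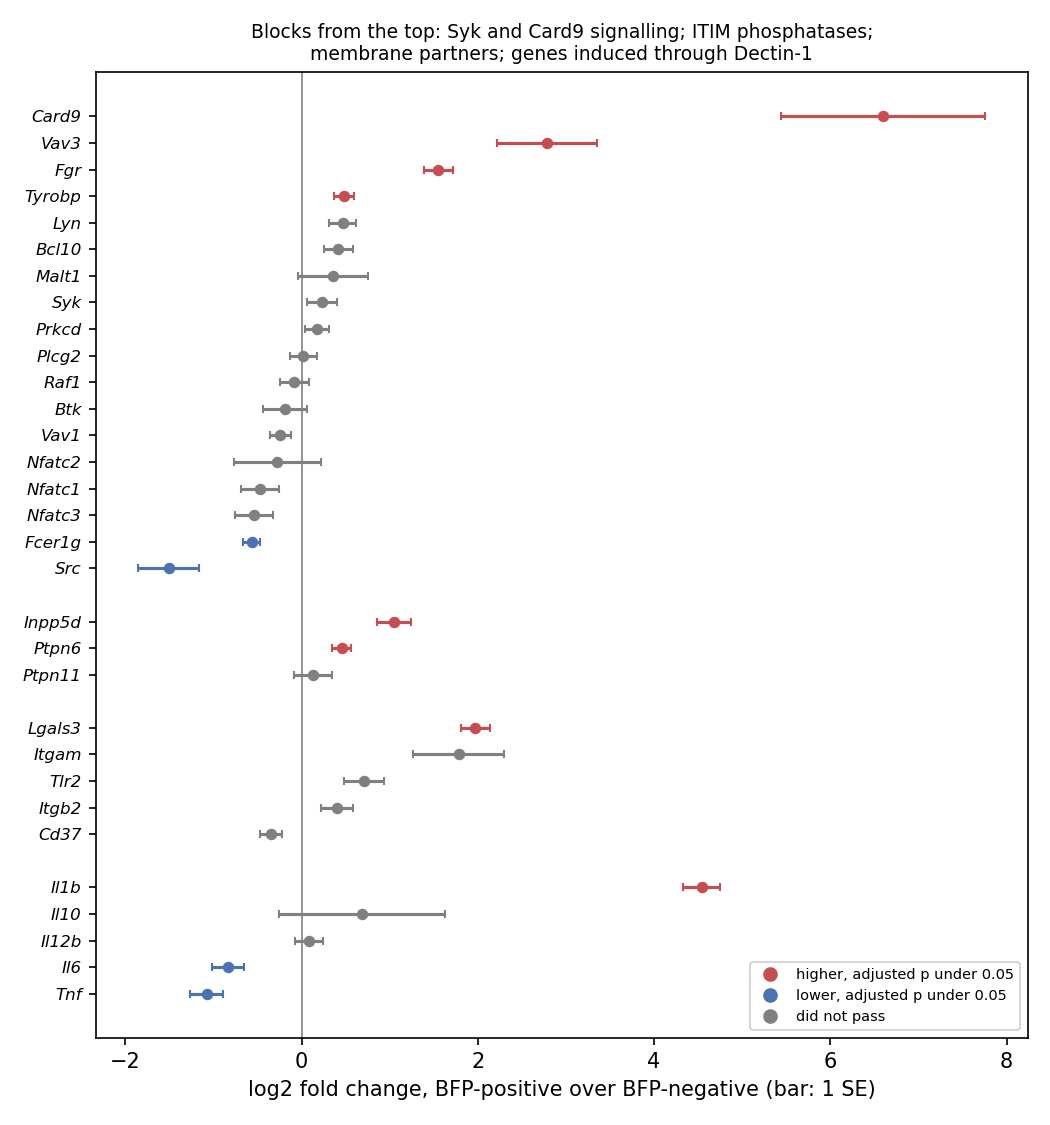
Log2 fold change with 1 SE of the tested signalling genes that are reported here, in blocks from the top for Syk and Card9 signalling, ITIM phosphatases, membrane partners of Dectin-1 and genes induced through Dectin-1. Red points passed as higher, blue points as lower and grey points did not pass. Card9 lies farthest to the right, and Fcer1g and Src are the blue points of the first block.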

How the data were processed

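Libraries came from total RNA by a SMART-Seq kit, per the labels' protocols, which records neither the strand nor single molecules. The authors deposited raw counts per gene, whole numbers without normalization, and log2 RPKM values per library, scaled by the authors to gene length and depth. Subread, featureCounts, limma and the builds GRCm38 and mm10 are listed in the submitters' processing notes. Their versions are not given in the sources used here.

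The genes and lists were chosen with earlier results of these data known. Genes were kept by filterByExpr (minimum count 10, minimum total 15), which left 11706 of 27179. BFP-positive was compared with BFP-negative by edgeR 4.0.16 (R 4.3.3), quasi-likelihood test, TMM scaling and no other term (2 residual degrees of freedom). Two-sided p-values were adjusted by Benjamini-Hochberg over the 11706 genes, with a threshold of 0.05. SE is the log2 fold change divided by the square root of F. Alternatives were DESeq2 1.42.0, limma-voom (limma 3.58.1), other scalings, no filter, the replicate block and leaving out each library. On simulated data for this comparison (11679 genes), edgeR recovered 91% of genes changed 2 on the log2 scale and 13% of those changed 1. The changed genes were drawn only from those with higher counts, and all genes were given the same spread. These shares therefore do not cover genes with few counts. Named genes are the 8 lectins, the list genes past the threshold, the 3 with the smallest p of each list, Fcer1g, Syk, Card9, Ptpn6, Ptpn11 and Inpp5d, and the 5 genes nearest in profile. Some other list genes are given where their role is explained. Promoters come from RefSeq and coding sequences from GENCODE, aligned with Biopython 1.88. Some list genes are counted with their list and not reported here by name.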

Additional observations from a re-analysis of the deposited data

How the results depend on the processing

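Each of the 8 lectins was higher in BFP-positive cells under all 10 alternatives with a test and in the deposited log2 RPKM. The number past the threshold was 7 to 8 with 1 library left out and 7 with library totals alone and by DESeq2. Over all genes, 890 rose and 411 fell. These counts ran from 559 higher without BFP-positive replicate 2 to 921 without BFP-negative replicate 2, and from 245 lower without BFP-positive replicate 1 to 408 without BFP-negative replicate 1. Scaling by library totals alone gave 813 and 574. Among other lectins the number higher was 0 to 1 with 1 library left out, the 1 being Clec10a. Among neighbouring genes, chosen after seeing the data, the number lower was 0 to 1 with 1 library left out, and 1 with library totals alone, no filter, DESeq2, limma-voom and the replicate block. Clec2d, which did not pass, had a log2 fold change of -0.55, with a range from -0.98 to 0.11 when 1 library was left out, the 0.11 without BFP-negative replicate 1. The cause of these changes was not tested, except that fewer libraries enter a fit with 1 left out. Same-numbered libraries share a title code of unknown meaning. The labels do not say that a number marks a shared animal or day, so the main fit took no pairs. Deviations of same-numbered libraries correlated at 0.06 across genes. With 2 libraries a group that value cannot decide whether the libraries are pairs, and pairing remains possible. With the replicate block, 1140 genes were higher and 760 lower, all 8 lectins passed as higher, and Itgam and Tlr2 gained a call. Where 1 library of a group was left, it was assumed to vary like the others. Levels per length were not recomputed from counts because the tables hold no gene lengths.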

Other observations

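The transcripts whose profile lay nearest to the mean profile of the 8 lectins over the 4 libraries were Gpr183, Gbp2, Oas1a, Gprc5c and Ifitm2. Likeness was the Euclidean distance between log2(CPM + 1) values centred on each gene's mean, which was 0.157 for Gpr183 and 0.201 for Ifitm2. The lectins themselves lay at 0.418 (Clec4a4) to 2.57 (Clec12a) from their mean. Gpr183, a receptor for oxysterols, was at 23.2 and 27.6 CPM in BFP-negative and 206 and 224 CPM in BFP-positive libraries. Gbp2, an interferon-induced GTPase, was at 2.57 and 3.15 against 32.4 and 31.5 CPM. Gprc5c, an orphan receptor, was at 6.18 and 9.22 against 67.4 and 77.1 CPM. Oas1a and Ifitm2 belong to families of near-identical copies, and their counts are uncertain. The likeness rests on 4 libraries in 2 groups, which all these genes share.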
